A study of Homo sapiens with 15 samples.

Results

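The 50 genes described here encode proteins that act in G2 phase and mitosis. They were taken by name from the 19143 rows of a read count table that covers 15 RNA sequencing libraries. All of the libraries were made from MHCC-97H, a long-established line of human hepatocellular carcinoma cells. All 50 had a row, and all 50 passed edgeR's filter on low counts in every comparison, so each gene of the list is accounted for below. The list holds 2 proliferation markers, 6 mitotic cyclins, CDK1 and CDC25 phosphatases, 2 transcription factors, 6 mitotic kinases, 4 spindle checkpoint proteins, 7 centromere and kinetochore proteins, 3 chromosomal passenger proteins, 7 spindle assembly factors, 7 genes of condensin, cohesin and separase, 3 partners of the anaphase-promoting complex and 3 cytokinesis factors.

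The first round of sequencing covered 3 libraries each of cells in a 3D model, of an animal model and of cells in a 2D model. A later, second round covered 3 libraries of heat-treated cells in the 3D model and 3 labelled as treatment controls in the 3D model. Every group is the same cell line, and the labels name no drug and no genetic change in any of them. They give neither the temperature and duration of heating, nor the material of the 3D model, nor the host animal. The replicates are called biological, but nothing says whether each came from its own culture or animal, so the p-values speak only of the spread among these libraries.

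G2 and mitosis genes are transcribed late in the cell cycle, so their transcripts are abundant where many cells are dividing and scarce where cells rest. In quiescent cells the DREAM complex, which contains the MuvB core, holds their promoters silent; in cycling cells MuvB instead works with the factors MYBL2 (B-MYB) and FOXM1 to activate them. MuvB contacts a promoter element named the cell cycle genes homology region (CHR), often placed a short way downstream of CCAAT boxes bound by the factor NF-Y. Most adult hepatocytes rest outside the cell cycle, whereas hepatocellular carcinoma cells divide, and Ki-67, the product of MKI67, is stained in liver pathology as a mark of cycling cells.

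Promoter windows were available for 42 of the 50 genes, from a RefSeq table on build GRCh38.p14 that runs from 250 bases before to 50 bases after each start site; BUB3, FOXM1, TTK, ESCO2, AURKA, UBE2C, BIRC5 and TPX2 had no entry. The letters of the CHR, TTTGAA, were searched on both strands, and 29 of the 42 genes (69.0%) held them in at least 1 window, against 18.2% of the 27305 genes of the table. CCAAT, searched likewise, was found in 32 of 42 (76.2%), against 39.7% of all genes, and both elements were found in 21 of 42 (50.0%), against 7.26%. The CHR variant TTCGAA was found in 3 of 42 (7.14%), against 1.82%, and an E2F element, searched as TTTCCCG and in the forms that read TTTGGCG and also TTTCGCG and lastly TTTGCCG, in 6 of 42 (14.3%), against 10.4%. Matches of different elements may overlap, and 9 of the 42 genes have more than 1 window; counted per window the CHR was in 57.1% of the genes' windows and in 15.2% of all windows. These are letter matches, and binding was not measured here.

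In 18 of the 42 genes a CHR match began within 50 bases before the start site. The 120 bases before the start site are shown for 8 genes as examples, which do not stand for all members with low transcripts. All of the 8 but CCNB1 hold a CHR match within 50 bases before the start site. CCNA2 and BUB1, whose transcripts also fell (below), hold no TTTGAA in their windows. BUB1 holds the CHR variant TTCGAA, which begins at base 2 counted from the start site. Further forms of the CHR were not searched, so a window without TTTGAA is not shown to lack a CHR. TOP2A, which fell as well, holds TTTGAA only at 194 and 151 bases before the start site. PLK1 and CCNB1 were included because they differ in elements or in response. Shown are the stretches of MKI67, BUB1B, PRC1, CCNB2, CDK1, GTSE1, PLK1 and CCNB1. Each is written 5′ to 3′ on the strand of the gene, and capitals mark CHR letters (TTTGAA, which reads TTCAAA where the match is on the other strand) and CCAAT boxes (which read ATTGG where the match is on the other strand).
MKI67: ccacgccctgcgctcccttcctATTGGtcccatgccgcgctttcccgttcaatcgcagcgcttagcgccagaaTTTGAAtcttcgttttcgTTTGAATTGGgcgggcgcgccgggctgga
BUB1B: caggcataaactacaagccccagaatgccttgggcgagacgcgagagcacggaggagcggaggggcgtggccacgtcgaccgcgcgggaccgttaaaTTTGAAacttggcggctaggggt
PRC1: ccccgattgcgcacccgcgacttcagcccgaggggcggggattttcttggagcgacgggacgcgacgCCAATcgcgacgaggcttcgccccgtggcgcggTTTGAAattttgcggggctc
CCNB2: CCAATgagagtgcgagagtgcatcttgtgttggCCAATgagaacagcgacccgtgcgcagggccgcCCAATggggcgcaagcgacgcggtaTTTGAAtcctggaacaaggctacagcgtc
CDK1: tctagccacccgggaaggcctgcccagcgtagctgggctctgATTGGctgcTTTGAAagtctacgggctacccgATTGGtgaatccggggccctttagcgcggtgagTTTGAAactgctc
GTSE1: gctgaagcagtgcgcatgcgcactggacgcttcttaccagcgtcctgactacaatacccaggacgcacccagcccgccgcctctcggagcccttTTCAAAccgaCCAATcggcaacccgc
PLK1: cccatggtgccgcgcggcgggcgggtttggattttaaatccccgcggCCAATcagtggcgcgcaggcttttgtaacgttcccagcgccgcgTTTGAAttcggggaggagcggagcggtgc
CCNB1: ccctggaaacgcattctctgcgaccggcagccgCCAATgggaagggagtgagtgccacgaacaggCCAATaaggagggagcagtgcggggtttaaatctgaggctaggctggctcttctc

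On GRCh38.p14 these stretches are chr10:128126424-128126543 (minus strand) for MKI67, chr15:40160949-40161068 (plus) for BUB1B, chr15:90994536-90994655 (minus) for PRC1, chr15:59105026-59105145 (plus) for CCNB2, chr10:60778358-60778477 (plus) for CDK1, chr22:46296750-46296869 (plus) for GTSE1, chr16:23678769-23678888 (plus) for PLK1 and chr5:69167030-69167149 (plus) for CCNB1. For CDK1, which has 2 windows, the one with more matches is shown. The first base of the CHR lies 29 bases before the start site in CCNB2 and PLK1, 26 in GTSE1, 23 in BUB1B and 20 in PRC1. MKI67 has CHR matches at 47 and 29 bases before the start, the last of which runs into a reverse CCAAT box, and CDK1 has them at 69 and 13 bases. CCNB2 combines its CHR with CCAAT boxes at 120, 87 and 54 bases. CCNB1, whose product is the cyclin that partners CDK1 at mitotic entry, has boxes at 87 and 55 bases and no TTTGAA in its window. Of the 28 genes that were lower in the 3D than in the 2D libraries (below), 23 had a window and 18 of these (78.3%) held a CHR. Of the 22 that did not pass that test, 19 had a window and 11 (57.9%) held one. For the CCAAT box the counts were 20 of 23 (87.0%) and 12 of 19 (63.2%). These are few genes, and the calls also differed with transcript GC content. Of 35 members below the median GC content of all genes tested 25 were called lower, and of the other 15, 3 were. The shares over all genes of each GC class are not given. Whether the motifs go with the calls apart from GC content was not tested.

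Levels are given in CPM, the count of a gene relative to all counts of its library on a fixed scale, adjusted for composition by the TMM method over all 15 libraries. Library totals were 12605539 to 18634295 counts. The 50 genes took 0.323%, 0.351% and 0.247% of all counts in the 3D libraries and 0.447%, 0.468% and 0.520% in the animal libraries, against 0.631%, 0.623% and 0.620% in the 2D libraries. In the second round they took 0.390%, 0.395% and 0.401% in the heated libraries, against 0.479%, 0.498% and 0.482% in the controls. The share was thus lower in each 3D and animal library than in any 2D library, and lower in each heated library than in any control. On the TMM scale the summed CPM of the 50 genes was 5961, 3078 and 3688 in the heated libraries, against 4587, 4791 and 4712 in the controls, so that heat replicate 1 lies above every control and replicates 2 and 3 below. On that scale the sums were 4382, 4753 and 2521 in the 3D libraries and 3912, 4013 and 4429 in the animal libraries, all below the 5980, 5880 and 5892 of the 2D libraries.

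In all, 3 libraries stand apart from the rest: 3D replicates 1 and 2 and heat replicate 1. Across all genes their departure from the 2D libraries rose with the GC content of the transcript, with rank correlations of 0.706, 0.797 and 0.593, and their TMM factors were 0.737, 0.738 and 0.655. The 50 genes are GC-poor, with a median transcript GC content of 42.9% against 48.8% over all genes tested, and 35 of them lie below that overall median. In 3D replicates 1 and 2 and heat replicate 1 the departure of the 50 genes from the 2D or control mean followed their own GC content, with rank correlations of 0.835, 0.892 and 0.733 over the 50 genes, which share each library's depth and composition. In 3D replicate 3 and heat replicates 2 and 3 these correlations were -0.450, -0.426 and -0.328. For 3D against 2D, for the animal model against 3D and for heat, counts of calls are therefore also given without these libraries and with an offset for each library's trend in GC content and length; the part of RNA quality or library preparation in them was not tested.

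**Figure D1:**
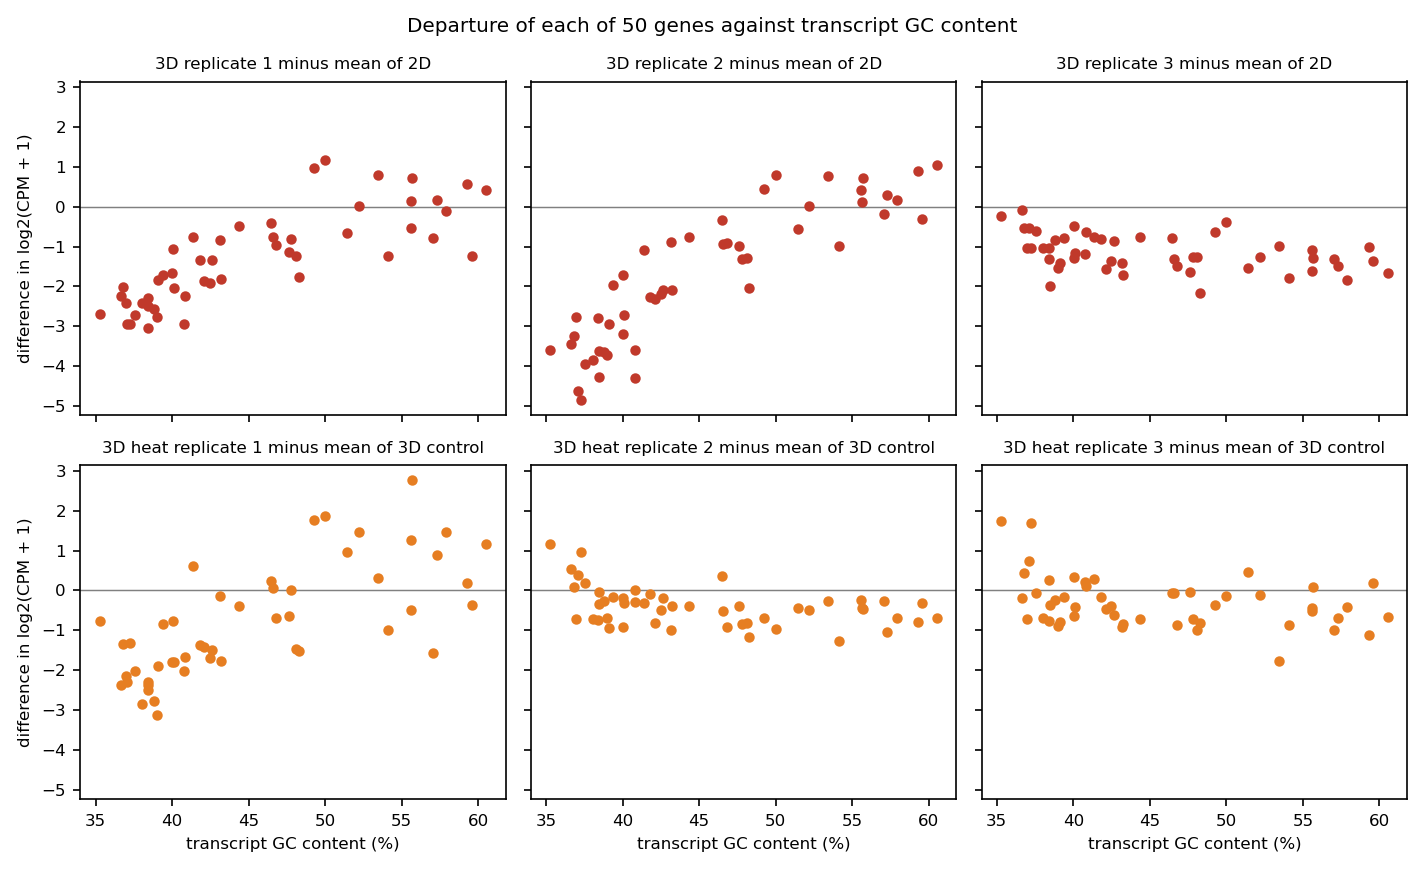
Departure of each of the 50 genes from its reference mean, in log2(CPM + 1), on the y axis, against transcript GC content in percent on the x axis, with 1 panel per 3D and heated library. The points climb with GC content in 3D replicates 1 and 2 and heat replicate 1 (rank correlations 0.835, 0.892 and 0.733) and do not in 3D replicate 3 and heat replicates 2 and 3 (-0.450, -0.426 and -0.328).

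In the 3D libraries of the first round, 28 of the 50 genes fell against the 2D libraries and none rose. They included the proliferation markers MKI67 and TOP2A, all 4 spindle checkpoint genes, cyclins A2, B1 and B2 with CDK1, and the kinases AURKA, NEK2, PLK4 and TTK. With the GC and length offset 24 of the 28 were still called lower, and BUB3, MAD2L1, CCNB1 and CCNB2 were not. A gene was called where its Benjamini-Hochberg adjusted p in edgeR's quasi-likelihood test, over all 12925 genes tested, was below 0.05. By that rule 12.9% of all genes were called lower and 20% higher. The median log2 fold change of the 50 genes was -1.38, against 0.03 over all genes, and 44 of the 50 had a negative sign. The 3D and 2D libraries did not overlap for 39 genes, all lower in 3D, where the share over all genes was 25.2%. In bulk RNA, fewer cells in G2 and mitosis and less RNA per cell cannot be told apart.

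MKI67, which encodes the Ki-67 protein that coats mitotic chromosomes, had 109, 89.3 and 81.7 CPM in the 3D libraries, against 362, 385 and 362 CPM in the 2D libraries. All 3 libraries of the 3D model lie close together and far below 2D, and the fall was 4.07-fold (log2 fold change -2.03, SE 0.17, adjusted p 0.000642). TOP2A, the DNA topoisomerase that untangles chromosomes before they separate, had 63.7, 29.2 and 85.1 CPM in 3D, against 231, 233 and 224 CPM in 2D (-1.98, SE 0.36, adjusted p 0.00529). Its groups do not overlap either, but replicate 2 sits well below replicates 1 and 3.

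Among the spindle checkpoint genes, whose products delay anaphase until every chromosome is attached, all 4 fell. BUB1B, the checkpoint protein BubR1, had 19.4, 15.9 and 20.8 CPM in 3D, against 70.3, 69.9 and 71.3 CPM in 2D (-1.95, SE 0.19, adjusted p 0.000897). BUB1, a checkpoint kinase, had 23.2, 19.3 and 34.8 CPM in 3D, against 89.6, 89.9 and 92.7 CPM in 2D (-1.84, SE 0.25, adjusted p 0.00188). The 3D replicates of both genes lie within a narrow band compared with their distance from 2D. MAD2L1, which encodes the CDC20 inhibitor MAD2, and BUB3, which brings BUB1 to kinetochores, fell 2.77-fold (adjusted p 0.0107) and 1.86-fold (adjusted p 0.00647). With the GC and length offset neither passed: MAD2L1 had a log2 fold change of -0.38 (adjusted p 0.165) and BUB3 had the other sign (0.26, adjusted p 0.514).

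Of the cyclins, CDK1 and its phosphatases, 4 of 6 fell. CCNA2, cyclin A2, had 25.4, 18.4 and 31.4 CPM in 3D, against 97.0, 94.8 and 92.7 CPM in 2D (-1.95, SE 0.24, adjusted p 0.00128). CCNB1 had 84.9, 81.7 and 56.3 CPM in 3D, against 156, 153 and 147 CPM in 2D (-1.07, SE 0.19, adjusted p 0.00458). For CCNB1 the lowest 3D library is replicate 3; with the GC and length offset its log2 fold change was -0.56 (SE 0.28, adjusted p 0.156). CDK1, the kinase that drives mitotic entry, had 15.7, 12.0 and 42.4 CPM in 3D, against 86.4, 86.4 and 90.0 CPM in 2D (-1.92, SE 0.44, adjusted p 0.0120). Replicate 3 holds more CDK1 than the other 3D libraries while still lying below 2D, and without 3D replicate 1 the adjusted p was 0.0501. CCNB2, a second B-type cyclin, fell 1.63-fold (adjusted p 0.0200), and had -0.31 with the offset (adjusted p 0.226). CDC25B and CDC25C, the phosphatases that activate CDK1, did not pass; CDC25B had 716, 908 and 238 CPM in 3D, against 484, 482 and 482 CPM in 2D, so that 2 of its 3D libraries lie above 2D and replicate 3 lies below.

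Among the mitotic kinases AURKA, which matures centrosomes, had 74.2, 65.7 and 50.3 CPM in 3D, against 126, 128 and 127 CPM in 2D (-1.04, SE 0.18, adjusted p 0.00468). NEK2, which separates centrosomes, PLK4, which starts centriole duplication, and the checkpoint kinase TTK fell 2.68-, 4.55- and 5.35-fold (adjusted p 0.0174, 0.0336 and 0.0382). PLK1, a kinase needed from mitotic entry to cytokinesis, had 286, 308 and 89.1 CPM in 3D, against 258, 247 and 253 CPM in 2D (-0.20, SE 0.38, adjusted p 0.700). Replicates 1 and 2 lie above every 2D library and replicate 3 far below, and AURKB, the Aurora kinase of the passenger complex, is split in the same way at 74.6, 91.4 and 31.3 CPM in 3D, against 69.9, 65.6 and 68.2 CPM in 2D.

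Of the 7 kinetochore and centromere genes, NDC80, SPC25 and CENPA fell. NDC80, which holds microtubules to the kinetochore, had 8.69, 5.09 and 16.8 CPM in 3D, against 38.1, 37.5 and 40.6 CPM in 2D (-1.94, SE 0.40, adjusted p 0.00796). SPC25, another subunit of the NDC80 complex, and CENPA, the histone variant that marks centromeres, fell 2.89-fold (adjusted p 0.00417) and 2.29-fold (adjusted p 0.00776). CENPF, a large kinetochore protein, had 13.3, 4.58 and 43.0 CPM in 3D, against 73.4, 61.1 and 66.6 CPM in 2D (-1.73, SE 0.64, adjusted p 0.0664). Every 3D library is below every 2D library for CENPF, yet the spread within 3D is wide and the gene did not pass. NUF2, the partner of NDC80, and the kinetochore motor CENPE did not pass (adjusted p 0.057 and 0.197), and SPC24 overlapped between groups.

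Of the 7 spindle assembly genes 4 fell. TPX2, which activates AURKA on the spindle, had 223, 231 and 154 CPM in 3D, against 438, 435 and 421 CPM in 2D (-1.13, SE 0.19, adjusted p 0.00358). GTSE1, a microtubule plus-end protein of G2 and S phase, had 28.5, 34.0 and 19.2 CPM in 3D, against 69.4, 71.0 and 66.3 CPM in 2D (-1.38, SE 0.23, adjusted p 0.00376). Both were low in all 3D libraries, and GTSE1 is among the GC-rich members (54.1%). DLGAP5 and NUSAP1, which bind and bundle spindle microtubules, fell 4.40-fold (adjusted p 0.00602) and 2.61-fold (adjusted p 0.0117), while ASPM, CKAP2 and HMMR did not pass.

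For cytokinesis, PRC1, which bundles the midzone of the anaphase spindle, was among the least variable within 3D, with 37.0, 35.7 and 36.2 CPM, against 89.4, 87.7 and 88.7 CPM in 2D (-1.32, SE 0.18, adjusted p 0.00190). ECT2, the exchange factor that starts furrowing, fell 4.12-fold (adjusted p 0.0295). ANLN, the furrow scaffold anillin, had 90.3, 30.7 and 205 CPM in 3D, against 279, 292 and 293 CPM in 2D (-1.42, SE 0.55, adjusted p 0.0759). Its 3 libraries of the 3D model are spread widely, and it did not pass.

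In the condensin, cohesin and separase group NCAPG, NCAPH and ESCO2 fell. ESCO2, the acetyltransferase that locks cohesin on replicated DNA, had the largest fold of the list at 9.62 (-3.27, SE 0.74, adjusted p 0.0120), with 1.86, 0.218 and 4.97 CPM in 3D, against 22.3, 23.4 and 22.5 CPM in 2D. The condensin subunits NCAPG and NCAPH fell 5.67-fold (adjusted p 0.0082) and 2.47-fold (adjusted p 0.00399); SMC2 and SMC4, the condensin ATPases, and ESPL1, separase itself, did not pass. INCENP and CDCA8, the scaffold and the borealin subunit of the chromosomal passenger complex, fell 1.93-fold (adjusted p 0.0271) and 1.89-fold (adjusted p 0.0274), while BIRC5, survivin, did not pass.

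The calls were unevenly spread over transcript composition. None of the 3 partners of the anaphase-promoting complex passed, and neither did either transcription factor. CDC20, which activates that complex, had 135, 164 and 39.5 CPM in 3D, against 150, 142 and 142 CPM in 2D (-0.41, SE 0.41, adjusted p 0.446). FOXM1 had 228, 357 and 107 CPM in 3D, against 333, 327 and 329 CPM in 2D (-0.57, SE 0.34, adjusted p 0.222), and MYBL2 549, 847 and 129 CPM against 429, 404 and 397 CPM. In each of these genes replicate 3 is far below 2D, whereas replicate 2 is above it. Of the 35 GC-poor members 25 were called lower, and of the 15 GC-rich members 3 were. The shares among all GC-poor and all GC-rich genes are not given, so the split cannot be called particular to the members. In 3D replicates 1 and 2 the GC-poor members had median departures of -1.86 and -2.70 from 2D. Those of the GC-rich members were 0.13 and 0.28. In replicate 3 the medians of the GC-poor and GC-rich members were -1.04 and -1.32. The 6 members with a positive sign were UBE2C (0.62, the highest), PTTG1, SPC24, CDC25B, UBE2S and MYBL2.

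Without 3D replicates 1 and 2, which leaves replicate 3 alone against the 3 libraries of 2D, 47 of the 50 genes were called lower and none higher, where 23.6% of all genes were called lower and 22.9% higher. All 50 signs were negative, with a median of -1.26, and all 15 GC-rich members were called. That fit assumes that the single 3D library varies as the other groups do, and it cannot show whether replicate 3 stands for the model. In it CDC20 had a log2 fold change of -1.88 (SE 0.13, adjusted p 9.55e-05), FOXM1 of -1.63 (SE 0.09, adjusted p 6.66e-05), MYBL2 of -1.67 (SE 0.11, adjusted p 7.19e-05) and PLK1 of -1.51 (SE 0.19, adjusted p 0.000605). The 3 genes not called were CKAP2, CENPE and HMMR, whose products bind spindle microtubules or move along them. With all libraries and the GC and length offset, 36 genes were called lower and none higher, against 16.5% of all genes called lower, and the median was -1.07. Without 3D replicate 3, in contrast, 38 were called lower and 6 higher, where 37.5% of all genes were called lower and 34.7% higher.

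**Figure D2:**
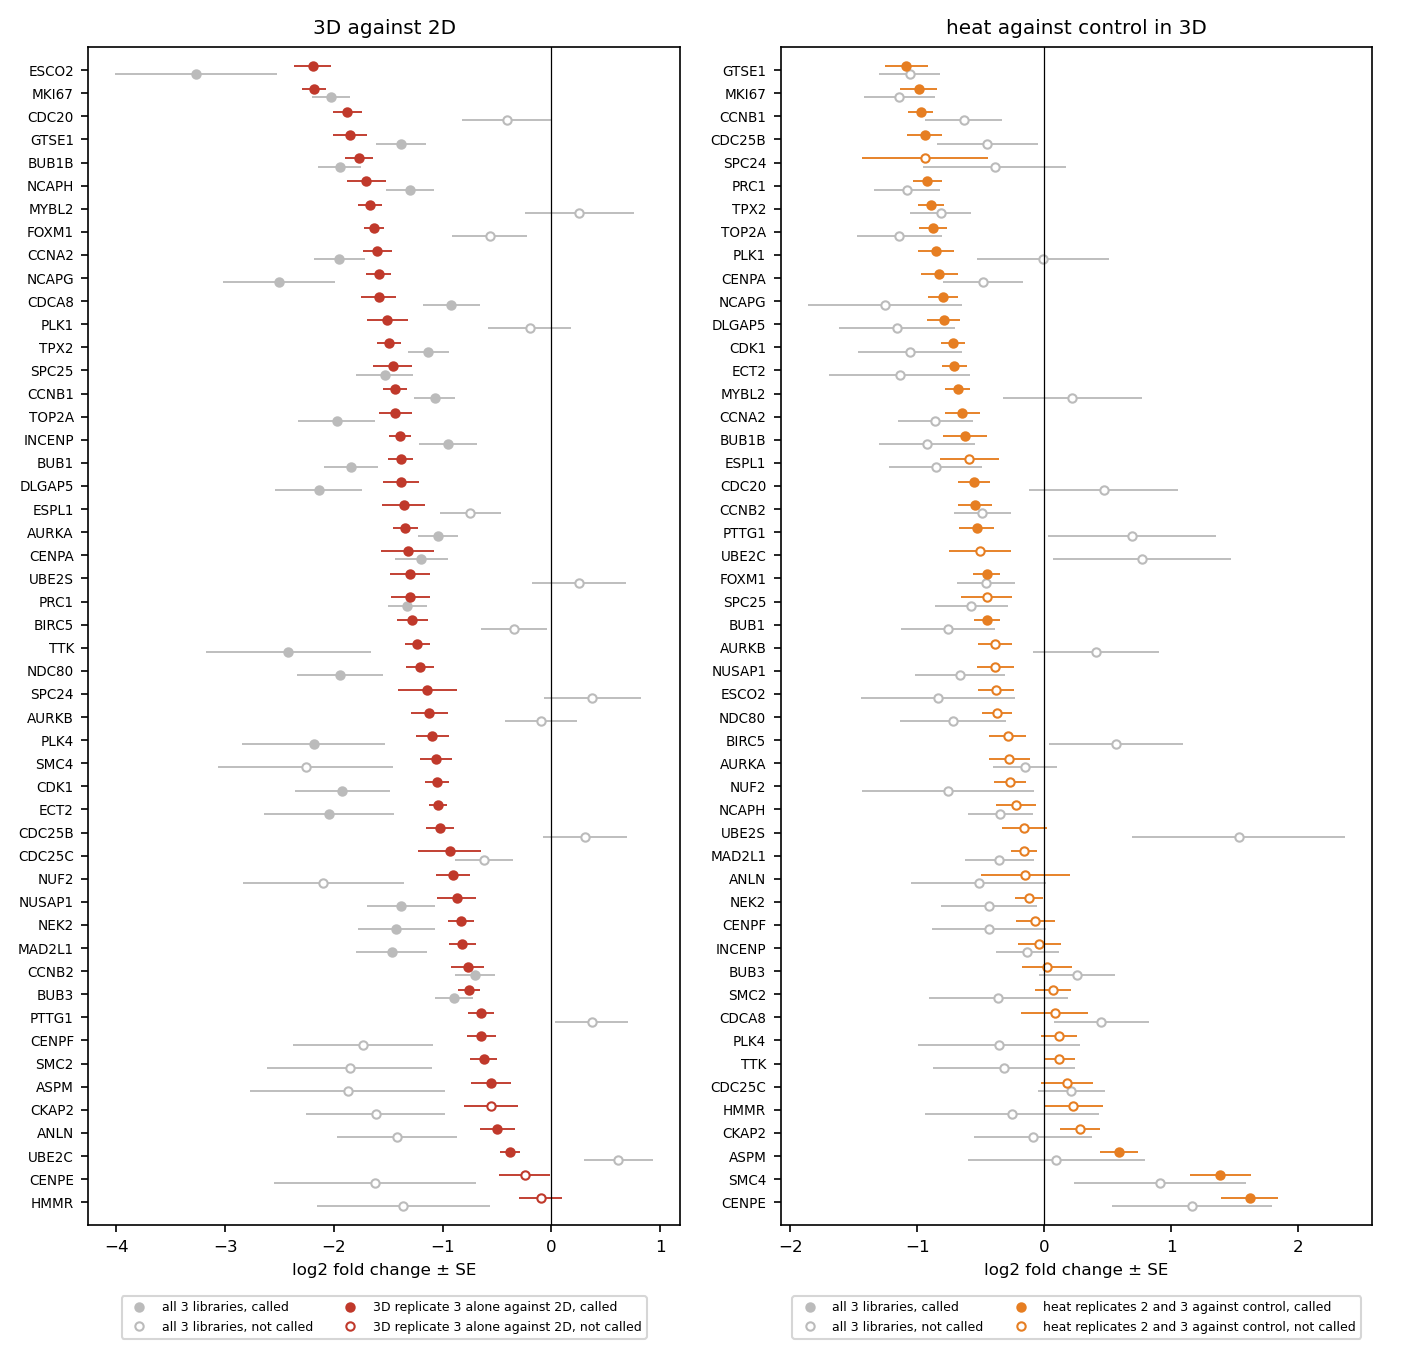
Log2 fold change ± SE of each of the 50 genes (rows) for 3D against 2D and for heat against control in 3D. Grey marks use all libraries, coloured marks 3D replicate 3 alone or heat replicates 2 and 3 alone, and filled marks are called; 28 genes are called lower in 3D with all libraries and 47 with replicate 3 alone, against 0 and 21 lower with heat.

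**Figure D3:**
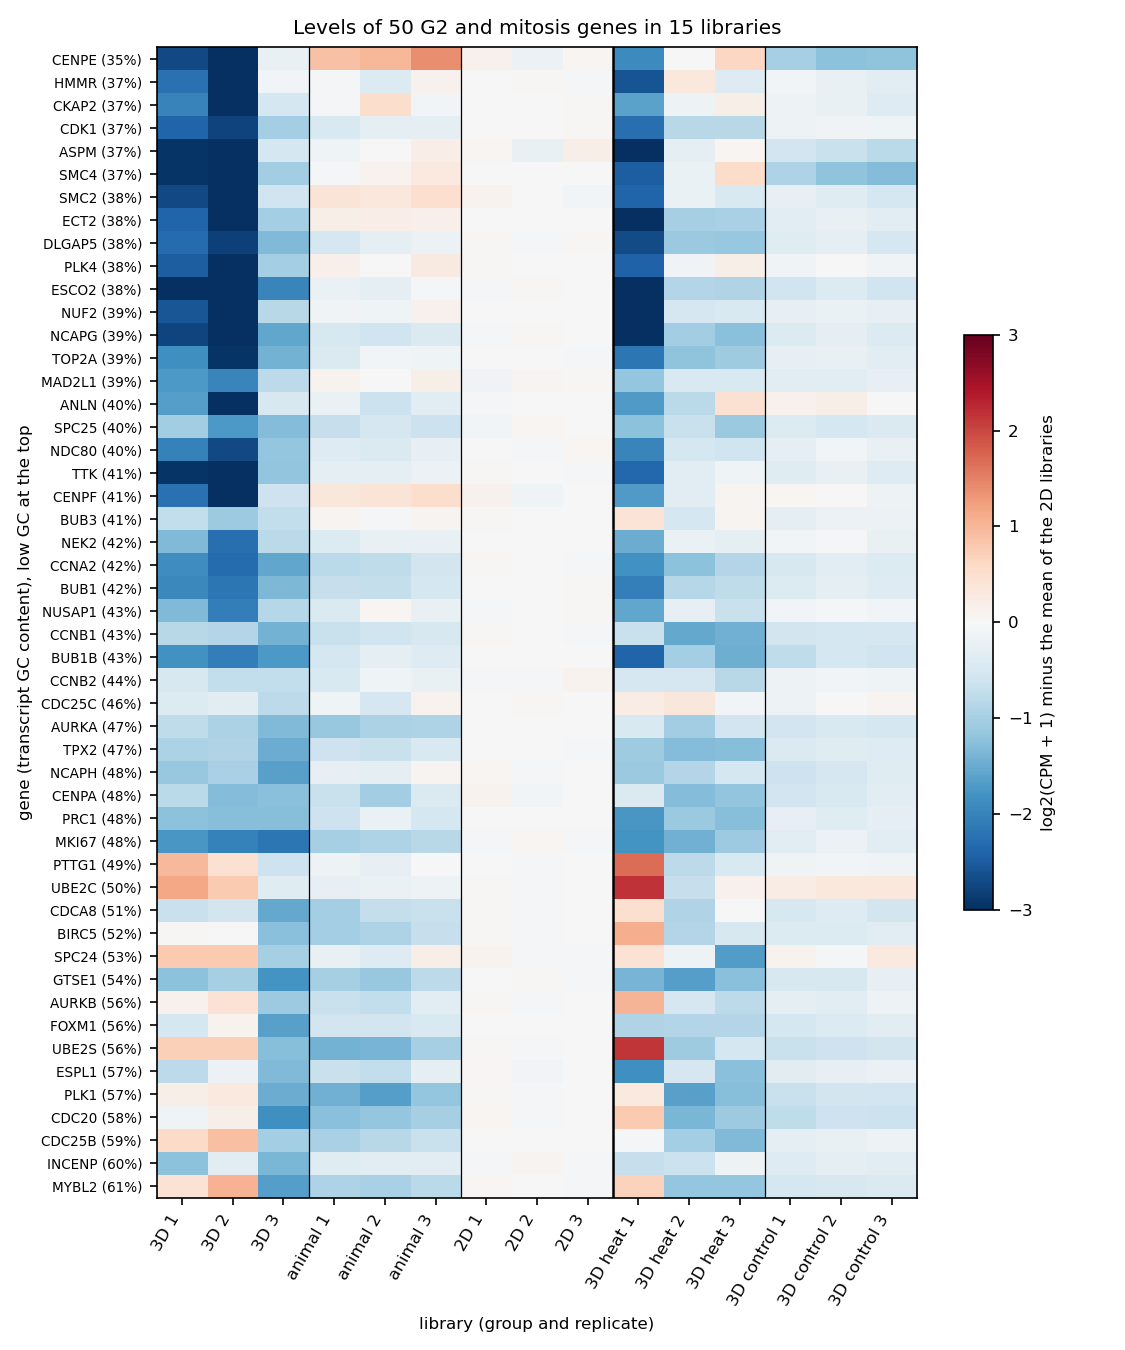
Level of each of the 50 genes (rows, GC-poor transcripts at the top) in each of the 15 libraries (columns), as the difference in log2(CPM + 1) from the mean of the 2D libraries, with the colour scale held within 3 either way. The 3D columns are mostly below 2D, and in 3D replicates 1 and 2 and heat replicate 1 the GC-poor rows are low while several GC-rich rows are not.

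In the animal model the median log2 fold change of the 50 genes against 2D was -0.35, where it was -1.38 in the 3D model. This did not hold for every member. The GC-rich members had median departures of -0.93, -0.74 and -0.66 in the animal libraries, and of 0.13, 0.28 and -1.32 in the 3D libraries. Of the 5 groups, 3D held the lowest mean for 33 genes and the animal model for 10. Of the 50 genes 4 fell against 2D. MKI67 had 186, 193 and 207 CPM in the animal libraries, against 362, 385 and 362 CPM in the 2D libraries (-0.92, SE 0.17, adjusted p 0.00795). AURKA had 57.0, 65.8 and 66.1 CPM in the animal model, against 126, 128 and 127 CPM in 2D (-1.01, SE 0.18, adjusted p 0.00818). GTSE1 had 33.7, 30.9 and 39.5 CPM, against 69.4, 71.0 and 66.3 CPM in 2D (-0.99, SE 0.23, adjusted p 0.0229). PLK1 had 92.6, 79.6 and 113 CPM, against 258, 247 and 253 CPM in 2D (-1.41, SE 0.39, adjusted p 0.0488). In each of the 4 genes every animal library is below every 2D library, with animal replicates close together. No gene of the list rose; at an unadjusted p below 0.05 there were 15 lower and 0 higher, where 11.4% of all genes were lower and 15.2% higher, and with DESeq2 12 lower and 0 higher, where 7.86% and 11.2% of all genes were called.

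Over all genes 4.25% were called lower and 7.78% higher in the animal model, so 4 of 50 is near the background. The median log2 fold change of the 50 genes was -0.35, against 0.03 over all genes, and 40 signs were negative. Of the 50 genes, 33 did not overlap and were lower, where the share over all genes was 32.7%, and 4 did not overlap and were higher, where it was 33.8%. Those 4 were CENPE, CENPF, SMC2 and ECT2; CENPE had 29.7, 32.1 and 42.9 CPM in the animal model, against 17.2, 13.6 and 16.2 CPM in 2D (1.15, SE 0.90, adjusted p 0.480). A fit of the animal and 2D libraries only called 30 lower and 4 higher, where 27.9% of all genes were called lower and 29.5% higher. With the GC and length offset 24 were called lower and none higher, where 19% of all genes were called lower. The median was then -0.56, against -0.11 over all genes. Leaving out any single library of the 2 groups gave 1 to 3 genes called lower: 1 without 2D replicate 2, 2 without 2D replicate 1, 2D replicate 3, animal replicate 1 or animal replicate 2, and 3 without animal replicate 3.

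Several other members had lower values in every animal library without passing. CCNB1 had 95.1, 99.5 and 109 CPM in the animal model, against 156, 153 and 147 CPM in 2D (-0.59, SE 0.19, adjusted p 0.0764). CDC20 had 59.9, 64.0 and 72.3 CPM, against 150, 142 and 142 CPM in 2D (-1.15, SE 0.41, adjusted p 0.112), and FOXM1 had 224, 225 and 239 CPM, against 333, 327 and 329 CPM in 2D (-0.52, SE 0.34, adjusted p 0.390). TOP2A, CDK1, BUB1B, NDC80 and ANLN were also lower in every animal library, with adjusted p-values of 0.778, 0.669, 0.216, 0.607 and 0.735. CENPF was instead higher in every animal library than in any 2D library (adjusted p 0.731). In the animal libraries the members' departure from 2D went down with GC content (rank correlations -0.678, -0.686 and -0.664 over the 50 genes): GC-rich members had median departures of -0.93, -0.74 and -0.66, and GC-poor members of -0.40, -0.27 and -0.17.

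Transcripts of other cell types move with the animal libraries. The 8 fibroblast and pericyte markers summed to 163 to 461 CPM in the animal model, 16.1 to 112 CPM in 3D and 64.5 to 68.9 CPM in 2D, with THY1 at 0 in the animal libraries. The 5 endothelial markers found in the table summed to 5.79 to 16.6 CPM in the animal model, 0.798 to 1.94 CPM in 3D and 1.42 to 1.71 CPM in 2D. The 9 macrophage and leukocyte markers summed to 165 to 220 CPM in the animal model, 388 to 495 CPM in 3D and 103 to 110 CPM in 2D, with CSF1R at 0 in 2D. Of these 9, 6 were tested in 3D against 2D, and 3 were called, all higher. They were CD68, a lysosomal protein (4.22-fold, adjusted p 0.000928), ITGAM, a leukocyte integrin (3.02-fold, 0.00295), and CD74, the invariant chain of antigen presentation (3.88-fold, 0.00686). CD163 (mean 0.27 against 0.76 CPM), LYZ (0.046 against 0.035) and PTPRC (0.318 against 0.301) were not called. CD68 had the largest part of the sum with 461, 472 and 374 CPM in 3D, against 97.4, 103 and 101 CPM in 2D. In animal against 2D, 4 of the 6 were called higher and 0 lower. There LYZ averaged 5.77 against 0.035 CPM and CD163 4.87 against 0.76 CPM. The 10 liver markers summed to 3175 to 3241 CPM in the animal model, 3105 to 10295 CPM in 3D and 3730 to 3873 CPM in 2D, most of it from the keratin KRT8. ALB, which encodes serum albumin, had 116, 90.9 and 283 CPM in the animal model, against 4.42, 2.04 and 1.66 CPM in 3D and 2.40, 2.11 and 2.56 CPM in 2D (adjusted p 0.000404 and 0.000557). AFP, alpha-fetoprotein, averaged 9.27 ± 6.06 CPM in the animal model, against 1.49 ± 0.917 CPM in 3D and 2.00 ± 0.162 CPM in 2D (SD, n = 3 each; adjusted p 0.00678 and 0.0313 in edgeR's test). The apolipoprotein APOA1 was at 0.180 CPM or less in each animal library, GPC3 was at or near 0 in every group, and KRT8, KRT18 and HNF4A were present in every library. Removal of host reads is not stated, and the part of other cells in the members' levels was not tested.

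**Figure D4:**
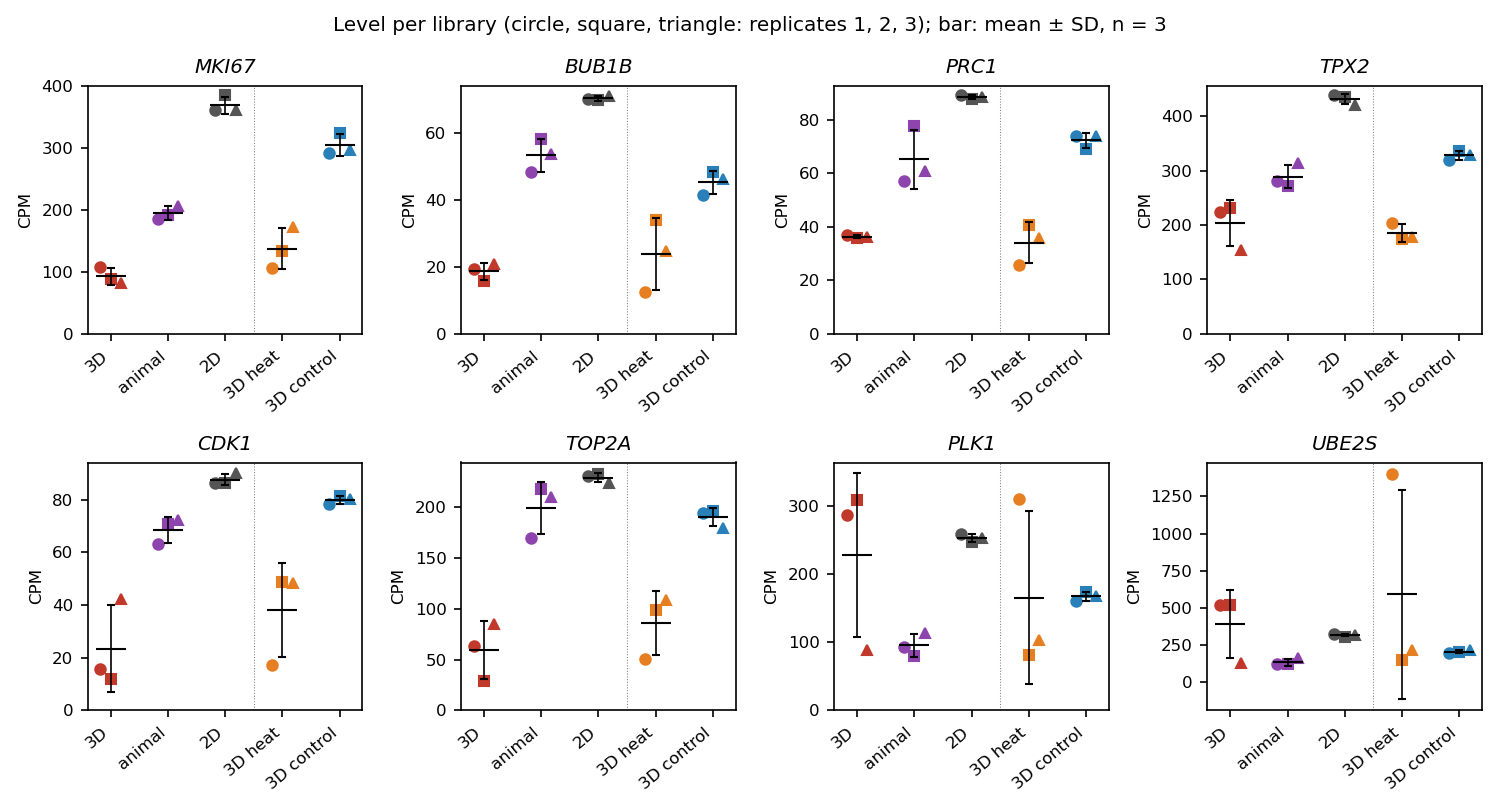
Levels in CPM of selected members in each library, with 1 panel per gene and the 5 groups along the x axis; circles, squares and triangles are replicates 1, 2 and 3, and bars give mean ± SD (n = 3). MKI67 lies at 81.7 to 109 CPM in the 3D libraries, 186 to 207 CPM in the animal libraries and 362 to 385 CPM in the 2D libraries.

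Set directly against the 3D libraries of the same round, 25 of the 50 genes rose in the animal model and 3 fell, where 18.6% of all genes were called higher and 22.9% lower. This comparison uses the same 3D and animal libraries as the ones above. BUB1B had 48.4, 58.3 and 53.9 CPM in the animal model, against 19.4, 15.9 and 20.8 CPM in 3D (1.55, SE 0.19, adjusted p 0.000864). MKI67 was 2.15-fold higher (adjusted p 0.00176), CCNA2 2.37-fold (adjusted p 0.00407), NCAPH 2.23-fold (adjusted p 0.00431), TOP2A 3.42-fold (adjusted p 0.00556) and BUB3 1.91-fold (adjusted p 0.00404). All 4 checkpoint genes, both proliferation markers, 5 of 7 genes of condensin, cohesin and separase and 4 of 7 kinetochore genes rose. With the GC and length offset 16 of the 25 were still called higher; BUB1, MAD2L1, TOP2A, CCNA2, CDK1, NEK2 and TPX2 no longer passed, and BUB3 (-0.35, adjusted p 0.336) and SPC25 (-0.16, adjusted p 0.615) had the other sign. CENPF rose 4.48-fold (adjusted p 0.0278), NDC80 2.97-fold (adjusted p 0.0135) and CDK1 2.97-fold (adjusted p 0.0200); CDK1 had 63.0, 70.8 and 72.2 CPM in the animal model, against 15.7, 12.0 and 42.4 CPM in 3D.

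The median log2 fold change was 1.08, against 0.10 over all genes, and 40 signs were positive. For 30 genes every animal library was above every 3D library, where the share over all genes was 27.5%, and for 0 every one was below, where it was 22.7%. The 3 genes called lower were UBE2S, a chain-extending partner of the anaphase-promoting complex, with 119, 119 and 159 CPM in the animal model, against 519.9, 522 and 129 CPM in 3D (-1.51, SE 0.44, adjusted p 0.0244), PLK1 (-1.21, SE 0.39, adjusted p 0.0354) and CDC25B (-1.13, SE 0.39, adjusted p 0.0450). All 3 are GC-rich. For UBE2S and PLK1, 3D replicate 3 lies within the range of the animal libraries, and for CDC25B it lies just below them, with 238 CPM. With the offset PLK1 and CDC25B no longer passed (adjusted p 0.140 and 0.287). CCNB1, CDC20, AURKA, ANLN and FOXM1 did not pass (0.49, -0.73, 0.03, 1.05 and 0.05 on the log2 scale; adjusted p 0.0621, 0.170, 0.892, 0.142 and 0.917).

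Without 3D replicates 1 and 2, 39 genes were called higher and none lower in the animal model, where 24.6% of all genes were called higher and 22.5% lower. The median was then 0.80, and the only negative sign was that of HMMR (-0.02). The genes called lower before had values of 0.03 (UBE2S), 0.08 (PLK1) and 0.19 (CDC25B) and did not pass. In that fit FOXM1 had a log2 fold change of 1.09 and CDC20 of 0.71. The fit holds a single 3D library, so the spread within 3D is not measured. Its calls rest on the spread within the other groups. With the GC and length offset 21 were called higher and 2 lower, against 17.9% and 24.2% of all genes. The median was then 0.40, against -0.07 over all genes. Leaving out 1 library at a time gave 11 (without 3D replicate 1) to 32 genes called higher; counts fell by more than 1.5 times also without animal replicate 1, 2 or 3 (16, 14 and 15). The number called lower was 10 without 3D replicate 3 and 0 without any other single library of the 2 groups. For these fits the shares over all genes are not given, so the counts have no background beside them.

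Across the 5 groups, 33 of the 50 genes had their lowest mean level in the first-round 3D model, 10 in the animal model and 7 in the heated 3D model. The highest mean lay in 2D for 30 genes, in the animal model for 10, in the heated 3D model for 6, in the first-round 3D model for 3 and in the 3D controls for 1. These orders count each library as it stands, with 3D replicates 1 and 2 and heat replicate 1 included.

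With heat treatment in the 3D model no gene of the list was called by edgeR in either direction, where 0.0158% of all genes were called lower and 0.00792% higher. At an unadjusted p below 0.05 there were 9 lower and 0 higher, where 8.97% of all genes were lower and 11.8% higher, and DESeq2 called 5 lower and 0 higher, where 5.51% and 6.8% of all genes were called. The median log2 fold change was -0.43, against 0.10 over all genes, with 37 negative signs, and for 22 genes every heated library was below every control, where the share over all genes was 19.1%. For 0 genes every heated library was above, where it was 17.5%. The heat-inducible chaperone gene HSPA1A had 24459, 1306 and 15594 CPM in the heated libraries, against 344, 352 and 366 CPM in the controls (adjusted p 0.0976); its near-identical copy HSPA1B may share its reads. Replicate 2 of the heated libraries is thus far below the other heated ones for this gene while above the controls.

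MKI67 had 106, 134 and 172 CPM in the heated libraries, against 292, 325 and 297 CPM in the controls (-1.14, SE 0.28, adjusted p 0.116). PRC1 had 25.5, 40.5 and 35.8 CPM with heat, against 74.0, 69.1 and 73.7 CPM in the controls (-1.08, SE 0.26, adjusted p 0.114). GTSE1 had 25.7, 21.1 and 28.1 CPM with heat, against 49.4, 49.3 and 58.0 CPM in the controls (-1.06, SE 0.24, adjusted p 0.106). These 3 genes are low in every heated library, replicate 1 included. TOP2A had 50.1, 98.7 and 109 CPM with heat, against 194, 196 and 180 CPM in the controls (-1.14, SE 0.34, adjusted p 0.144), and CDK1 had 17.4, 48.6 and 48.5 CPM, against 78.3, 81.4 and 80.3 CPM (-1.06, SE 0.41, adjusted p 0.215). CCNB1 had 95.4, 52.1 and 54.9 CPM with heat, against 104, 105 and 107 CPM in the controls (-0.63, SE 0.30, adjusted p 0.282). For TOP2A and CDK1 heat replicate 1 is the lowest library, and for CCNB1 it is the highest, close to the controls.

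Other members part far more in heat replicate 1. UBE2S had 1402, 149 and 219 CPM with heat, against 197, 205 and 214 CPM in the controls. CDC20 had 249, 55.1 and 67.5 CPM with heat, against 85.1, 93.5 and 91.5 CPM, and PLK1 had 311, 80.7 and 104 CPM, against 160, 173 and 168 CPM. In both genes replicate 1 is above and replicates 2 and 3 are below the controls. In heat replicate 1 the GC-poor members had a median departure of -1.52 from the controls and the GC-rich members of 0.96, whereas the medians were -0.34 and -0.50 in replicate 2 and -0.37 and -0.45 in replicate 3. BUB1B, NDC80, AURKA, FOXM1, CENPF and ANLN did not pass (-0.92, -0.72, -0.15, -0.46, -0.43 and -0.52 on the log2 scale; adjusted p 0.235, 0.354, 0.757, 0.295, 0.601 and 0.599).

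Without heat replicate 1, 21 of the 50 genes were called lower and 3 higher, where 14.8% of all genes were called lower and 14% higher, and the median was -0.42. CCNB1 fell (-0.97, SE 0.10, adjusted p 0.00575), as did TPX2 (-0.89, SE 0.10, adjusted p 0.0060), PRC1 (-0.92, SE 0.11, adjusted p 0.00718), TOP2A (-0.87, SE 0.11, adjusted p 0.0077) and CDK1 (-0.72, SE 0.10, adjusted p 0.00885). MKI67 (-0.99, adjusted p 0.0113), GTSE1 (-1.09, adjusted p 0.0132), PLK1 (-0.85, adjusted p 0.0147), CDC20 (-0.55, adjusted p 0.0295), FOXM1 (-0.45, adjusted p 0.0303) and BUB1B (-0.62, adjusted p 0.0437) were also called lower. All of these but PLK1, CDC20, FOXM1 and GTSE1 are GC-poor. Of the 35 GC-poor members 14 were called lower, and of the 15 GC-rich members 7 were. The shares over all GC-poor and all GC-rich genes are not given.

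The 3 genes called higher in that fit were CENPE, SMC4 and ASPM, which work on kinetochores, chromosome condensation and spindle poles. SMC4 had 17.2, 87.2 and 147 CPM with heat, against 51.7, 42.9 and 39.8 CPM in the controls (1.39, SE 0.24, adjusted p 0.0163 without replicate 1). CENPE had 3.44, 15.9 and 24.5 CPM with heat, against 7.36, 6.12 and 6.20 CPM in the controls (1.62, SE 0.23, adjusted p 0.0100 without replicate 1). ASPM had a value of 0.59 (SE 0.15, adjusted p 0.0357). For SMC4 and CENPE replicates 2 and 3 are above and replicate 1 is below every control. With all 6 libraries and the GC and length offset 10 genes were called lower, MKI67, TOP2A, CDK1, CCNA2, PRC1, GTSE1, DLGAP5, NCAPG, ECT2 and CENPA, and 1 higher, CENPE (1.16, adjusted p 0.0361), where 5.55% and 5.39% of all genes were called. Without heat replicate 2, 1 gene was called lower.

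The 3D controls of the second round and the 2D libraries of the first differ in both round and model, which cannot be told apart. In a fit of all 15 libraries none of the 50 genes was called lower or higher in the controls against 2D, where 0.00756% and 0.93% of all genes were called. At an unadjusted p below 0.05 there were 3 lower and 0 higher, where 2.65% of all genes were lower and 7.73% higher, and DESeq2 called none, where 0.808% and 2.96% of all genes were called. Still, 47 signs were negative with a median of -0.34, and for 43 genes every control was below every 2D library, where the share over all genes was 33.1%. MKI67 had 292, 325 and 297 CPM in the controls, against 362, 385 and 362 CPM in 2D, and BUB1B 41.5, 48.4 and 46.3 CPM, against 70.3, 69.9 and 71.3 CPM. A fit of these 2 groups alone called 40 genes lower and 2 higher, where 31.7% of all genes were called lower and 31.4% higher.

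The first-round 3D libraries and the second-round controls share the model's name but not the round. Of the 50 genes 8 were lower in the first-round 3D libraries and none higher, where 1.3% and 1.24% of all genes were called: MKI67, TOP2A, CCNA2, BUB1, BUB1B, NDC80, GTSE1 and PRC1. MKI67 was 3.27-fold lower (adjusted p 0.00554), with 109, 89.3 and 81.7 CPM, against 292, 325 and 297 CPM in the controls. BUB1B was 2.43-fold lower (adjusted p 0.0434) and PRC1 1.99-fold (adjusted p 0.0352). The median log2 fold change over the 50 genes was -0.997. The count was 32 lower and 2 higher without 3D replicate 3, where 30.9% and 26.1% of all genes were called, and 0 or 1 lower without any other single library of the 2 groups; without 3D replicates 1 and 2 none was called of 50 or of all genes, and the median was -0.92.

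Other cell cycle genes, from lists that leave out the 50, were counted beside them in the same fits. In 3D against 2D 12.9% of all genes were called lower and 20% higher. Of 32 kinetochore and centromere genes 21 fell and 1 rose in 3D against 2D (median -1.41); CENPN, which reads CENP-A nucleosomes, fell 3.40-fold (adjusted p 0.00105). Of 24 spindle, centrosome and cytokinesis genes 14 fell and 1 rose (median -1.26), among them CKAP5, a microtubule polymerase (2.63-fold, adjusted p 0.00112), and RACGAP1, the partner of ECT2 (2.39-fold, adjusted p 0.00128). Of 14 condensin and cohesin genes 5 fell (median -1.43), SMC1A with the smallest adjusted p (2.44-fold, 0.00133), and of 16 regulators of mitotic entry 10 fell (median -1.39), with MELK at 3.80-fold (adjusted p 0.000642). Of 25 S phase genes 17 fell (median -1.36), CLSPN, a checkpoint mediator at replication forks, by 6.41-fold (adjusted p 0.000642).

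The list of DREAM and MuvB subunits, RB1 and NF-Y had 7 lower and 1 higher of 15 (median -1.04), with the NF-Y subunit NFYA among the lower genes and LIN37, a MuvB subunit, up 2.16-fold (adjusted p 0.00793). The list of core subunits and inhibitors of the anaphase-promoting complex had 5 lower and 1 higher of 16 (median -0.43). Among 15 CDK inhibitors and G1 cyclins 2 were lower and 4 higher (median -0.46); CDKN1C, the inhibitor p57, rose 2.63-fold (adjusted p 0.00727). With 3D replicate 3 alone, the counts lower and higher were 25 and 1 of 32 kinetochore genes, 22 and 1 of 24 spindle genes, 8 and 1 of 14 condensin and cohesin genes, 13 and 0 of 16 entry regulators, 25 and 0 of 25 S phase genes, 8 and 2 of 15 DREAM, MuvB, RB1 and NF-Y genes, 7 and 1 of 16 genes of the anaphase-promoting complex and 9 and 3 of 15 CDK inhibitors and G1 cyclins. The S phase list thus had all 25 genes lower in that library, at a median of -1.61.

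With all 3D libraries and the GC and length offset, the counts lower and higher against 2D were 23 and 0 of the kinetochore genes, 20 and 0 of the spindle genes, 9 and 0 of the condensin and cohesin genes, 10 and 0 of the entry regulators and 20 and 0 of the S phase genes. They were 8 and 0 of the DREAM, MuvB, RB1 and NF-Y genes and 6 and 1 of the anaphase-promoting complex genes. Of the CDK inhibitors and G1 cyclins they were 5 and 0. Over all genes 16.5% were called lower and 16.1% higher in that fit. LIN37 (-0.028, adjusted p 0.937) and CDKN1C (0.32, adjusted p 0.373), which were called higher above, did not pass with the offset, and neither did CKAP5 (-0.57, adjusted p 0.106) and RACGAP1 (-0.66, adjusted p 0.0538).

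In the animal model against 2D few genes of these lists passed: 3 of 32 kinetochore genes, and 1 each of the spindle, condensin and cohesin, S phase, and CDK inhibitor and G1 cyclin lists, were lower. The gene with the smallest adjusted p was FAM83D, a spindle protein, 2.36-fold lower (adjusted p 0.00979), and CCND1, cyclin D1, was 1.72-fold lower (adjusted p 0.0180). CDC26, of the anaphase-promoting complex, was 1.76-fold higher (adjusted p 0.0429). With the GC and length offset 10 of 32 kinetochore genes, 11 of 24 spindle genes and 6 of 25 S phase genes were lower. In the same order, 0, 2 and 0 were higher. Over all genes the share called lower was 4.25% without the offset and 19% with it. The share called higher was 7.78% and 12.6%. For animal against 3D, 18.6% of all genes were called higher and 22.9% lower, and with the offset 17.9% and 24.2%. Against 3D, the animal libraries had 19 of 32 kinetochore genes, 11 of 24 spindle genes and 14 of 25 S phase genes higher, and 1, 0 and 1 lower, the lower ones being PMF1, a kinetochore protein (2.17-fold, adjusted p 0.0280), and TK1, thymidine kinase (3.35-fold, adjusted p 0.0156). Without 3D replicates 1 and 2 the counts higher were 25, 16 and 24 and the counts lower 0, 1 and 0; with the offset they were 18, 10 and 10 higher and 2, 0 and 0 lower, and in neither did PMF1 or TK1 pass. MELK was 2.96-fold higher (adjusted p 0.000493; 0.0893 with the offset), and the CDK inhibitor CDKN1A, p21, was 5.72-fold lower (adjusted p 0.00249; 0.00113 with the offset).

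With heat no gene of these 8 lists was called. Without heat replicate 1, 7 of 32 kinetochore genes, 8 of 24 spindle genes and 7 of 25 S phase genes were lower. In the same order, 5, 3 and 0 were higher. In that fit 14.8% of all genes were called lower and 14% higher. With all heated libraries and the GC and length offset these lists had 1, 3 and 3 lower and 1, 0 and 0 higher. There 5.55% of all genes were called lower and 5.39% higher.

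No strand-marking step is part of the described protocol, so reads of genes whose exons overlap cannot be told apart. Exons of 15 of the 50 genes overlap another gene in the GENCODE 29 annotation, among them CCNA2 with EXOSC9, BUB1B with the read-through BUB1B-PAK6, PRC1 with PRC1-AS1, PLK1 with ERN2, FOXM1 with ITFG2 and SMC4 with IFT80 and TRIM59. PTTG1, securin, has the near-identical copies PTTG2 and PTTG3P, and its value is uncertain for that reason.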

How the data were processed

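The authors deposited 1 table of unnormalized read counts, with a row for each gene symbol and a column for each library; its values are whole numbers whose totals differ between libraries. Per the labels' protocols, mRNA was primed with random hexamers and sequenced single-end on DNA nanoballs. HISAT2 and hg19 stand in the submitters' processing notes, with neither version nor role; the counting program, strand setting and removal of host reads are not given in the sources used here. Of 19143 rows, 1443 hold only 0 and 27 carry calendar dates in place of a symbol (0.168% of counts).

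Counts were fitted in R 4.3.3 with edgeR 4.0.16: filterByExpr by group, TMM scaling, robust quasi-likelihood with group as the only term, and Benjamini-Hochberg adjustment over all genes tested. The 9 libraries of the first round and the 6 of the second were fitted apart, and all 15 together for the comparisons across rounds and for CPM. The 50 members and all lists were chosen with earlier results of these data known, so no p is given for a list. In each comparison statistics are given for up to 6 called members with the smallest adjusted p in each direction, for 12 members set by role, and for called members that go against the median. Other members are given by counts, ranges or shorter values, chosen after their values were seen. Of the other cell cycle lists, genes among the 3 called with the smallest adjusted p are named. PMF1 and TK1 are named instead as the genes called lower in animal against 3D.

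Alternatives were DESeq2 1.42.0, scaling by median ratios or upper quartiles, a filter of 10 reads in each library of at least 1 group, no filter, a term for replicate number, the compared groups alone, leaving out libraries, and an offset for the GC content and length of the longest protein-coding transcript in GENCODE 29, fitted by splines of 5 degrees of freedom in each library. Counts of the other lists under the offset and without the libraries that stand apart were added after the data were seen. No pair of replicates agreed within sampling noise. Each library was counted as 1 sample, which does not show that the replicates came from separate cultures or animals. On simulated counts 63%, 66%, 71% and 28.5% of genes changed 4-fold were recovered: the first value is for 3D over 2D (12754 genes), the next for the animal model over 2D (12776), the next for the animal model over 3D (12776) and the last for heat over control (12535). Promoter sequences are RefSeq's, on GRCh38.p14, and were not joined to hg19 coordinates.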

Additional observations from a re-analysis of the deposited data

How the results depend on the processing

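For 3D against 2D the number of members called lower was 20 to 38 on leaving out 1 library and 47 without 3D replicates 1 and 2 together, and the number called higher was 0 to 6. The other alternatives gave counts within 1.5 times the 28 reported, and the median kept its sign in all that were run.

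For animal against 2D the number called lower was 12 with DESeq2, 24 with the GC and length offset, 30 with only the compared groups fitted and 1 to 3 on leaving out 1 library; 4 were called higher with only the compared groups, and the median was -0.56 with the offset. For animal against 3D the number called lower was 5 with DESeq2, 0 without 3D replicates 1 and 2 together, 0 with only the compared groups and 0 to 10 on leaving out 1 library; the number called higher was 39, 11 and 11 to 32 under the last 3 of these, and the median was 0.40 with the offset, 0.80 without 3D replicates 1 and 2, and 0.83 to 1.08 on leaving out 1 library.

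For heat against control the number called lower was 5 with DESeq2, 10 with the offset, 6 with all 15 libraries in 1 fit and 0 to 21 on leaving out 1 library, and the number called higher was 1 with the offset and 0 to 3 on leaving out 1 library. For the 3D controls against 2D, fitting only the compared groups gave 40 lower and 2 higher. For first-round 3D against the controls the number called lower was 26 with DESeq2, 5 with upper-quartile scaling and 3 with no filter. With the offset it was 19, where 257 of 13227 genes were called lower and 289 higher. Fitting only the compared groups gave 0, leaving out 1 library gave 0 to 32, and the number called higher was 0 to 2. Counts under a setting for which the text gives no share over all genes cannot be set against a general gain or loss of calls.

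With a replicate block, 29 members were called lower for 3D against 2D, 2 lower for animal against 2D, 24 higher and 0 lower for animal against 3D, 0 for heat, and 5 lower for first-round 3D against the controls. The numbers do not pair the libraries: deviations from the group means correlated at -0.187 to 0.125 between libraries with the same number, and not every library correlated best with its own number.

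Among the members named by the rule above, the sign changed in 3D against 2D for PLK1, which ranged from -0.47 to 0.17 on leaving out 1 library. In animal against 3D it changed with the offset for BUB3 (-0.35), CCNB1 (-0.29), CDC20 (0.13) and AURKA (-0.24), and without 3D replicates 1 and 2 for UBE2S (0.025), PLK1 (0.082), CDC25B (0.19) and CDC20 (0.71). There AURKA also changed with DESeq2 (-0.082), median-ratio scaling (-0.083) and only the compared groups (-0.042), and ranged from -0.094 to 0.15 on leaving out 1 library. FOXM1 changed with DESeq2 (-0.095), median-ratio scaling (-0.095) and only the compared groups (-0.041), and ranged from -0.29 to 0.49 on leaving out 1 library. With heat it changed for CDC20 with the offset (-0.15) and on leaving out 1 library (-0.55 to 0.81), and for PLK1 with DESeq2 (0.042), median-ratio scaling (0.042) and on leaving out 1 library (-0.85 to 0.31). Outside that rule, BUB3 in 3D against 2D and SPC25 in animal against 3D had the other sign with the offset, as given above. The remaining members were not followed in this way. The causes of these changes were not tested. Over the named members and the alternatives apart from those added later, sign and side of the threshold were kept by 221 of 240 values for 3D over 2D, 153 of 182 for the animal model over 2D, 193 of 255 for the animal model over 3D and 147 of 168 for heat. Depth, at 12605539 to 18634295 counts per library, limits the members with levels of a few CPM or less, such as ESCO2, NUF2 and CENPE in 3D.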
